A study of Mus musculus with 4 samples.

Results

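The cells of a tooth are held together, and kept apart from the fluids around them, by tight junctions and gap junctions. The genes described here encode the proteins of these junctions, and were taken as every gene whose symbol on the platform annotation is a numbered claudin (Cldn), a connexin (Gja, Gjb, Gjc, Gjd or Gje) or a zonula occludens scaffold (Tjp), together with Ocln, F11r, Jam2, Jam3, Cgn, Marveld2 and Marveld3. The array measured 43 of them among 18194 named genes, through 73 probe sets that each name 1 gene: 20 claudins, 14 connexins and 9 genes of junctional adhesion molecules (JAMs), MARVEL-domain proteins and scaffolds.

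Molar teeth were taken by hand from 60 Swiss Webster pups of both sexes, aged 1 to 10 days after birth, and ground together, and RNA of that single pool was hybridised to 4 Affymetrix Mouse Genome 430 2.0 arrays. All arrays form 1 group of untreated tissue, so every SD given here is technical and no age, sex or cell type can be separated. The 16 control tissues with which the study compared these arrays belong to another series and are not analysed here. In a bulk sample such as this, fewer cells of a type and less RNA per cell cannot be told apart. The defining genes of the tissue were present: 7 of 7 ameloblast markers and 5 of 5 odontoblast markers were above background.

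Claudins are membrane proteins that join between neighbouring epithelial or endothelial cells and set which ions pass between them, while occludin and tricellulin are MARVEL-domain partners, JAMs are immunoglobulin-type adhesion molecules, and the zonula occludens scaffolds tie the strands to actin. Connexins form hexameric channels that dock across the gap between cells and let small molecules and calcium signals pass. In developing teeth, ameloblasts seal the enamel space with tight junctions at both ends of the cell, and odontoblasts and pulp cells are coupled by gap junctions. Inherited defects of several members, among them GJA1, CLDN16 and CLDN19, are known to disturb enamel in patients.

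A gene was called above background where at least 1 of its probe sets exceeded, on each of the 4 arrays, the 95th percentile of 86 probe sets for olfactory, vomeronasal and taste receptors. That threshold was 1163 ± 142 signal units (SD, n = 4), between 996 and 1295 by array. Among junction genes 14 of 43 (32.6%) were above it, beside 51.6% of all genes, and their median log2 signal was 9.09, beside 10.69 for all genes. The connexins gave 5 of 14 (35.7%), the claudins 4 of 20 and the JAM, MARVEL and scaffold genes 5 of 9 (55.6%). Genes with several probe sets have more chances to pass: 6 of 25 members with 1 probe set were called, where 35.2% of such genes were called on the array as a whole, and 8 of 18 members with 2 or more, where 68.4% were. A one-sided limma test of the log2 ratio to the threshold, with a mean-variance trend and Benjamini-Hochberg adjustment over all probe sets, called the 14 members that passed on every array and no other, beside 50.9% of all genes. The same 14 were called where the brightest probe set alone decided (51.5% of all genes) and where 3 of the 4 arrays sufficed (55.9%). Signals depend on probe affinity, so the values below are set against the threshold and not ranked as amounts of mRNA between genes.

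The promoters of 4 members are shown as examples, chosen with their calls known, and do not represent the called genes or the others. Cldn1 and Cldn16 are neighbours with no protein-coding gene between them, of which 1 was called and the other was not. Tjp1 has a promoter rich in CpG, and Gja1 has none of the GC boxes found in most called members. Members not called can be rich in CpG too, with 41 in the 300-base window of Gjd2 against 31 in that of Tjp1. Each line gives the 120 bases just before the transcription start of RefSeq on GRCm38.p6, 5′ to 3′ on the strand of the gene, with capitals for a GC box (GGGCGG on either strand) or, in Gja1, for an AP-1 motif (TGANTCA). Cldn1 lies at chr16:26371840-26371959 on the minus strand, Cldn16 at chr16:26463015-26463134 on the plus strand, Tjp1 at chr7:65371245-65371364 on the minus strand and Gja1 at chr10:56377180-56377299 on the plus strand.
Cldn1: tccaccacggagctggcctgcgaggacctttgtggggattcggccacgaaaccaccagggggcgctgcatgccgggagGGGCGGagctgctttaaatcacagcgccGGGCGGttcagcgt
Cldn16: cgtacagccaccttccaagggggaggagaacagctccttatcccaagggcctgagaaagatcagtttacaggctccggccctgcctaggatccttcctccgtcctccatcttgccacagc
Tjp1: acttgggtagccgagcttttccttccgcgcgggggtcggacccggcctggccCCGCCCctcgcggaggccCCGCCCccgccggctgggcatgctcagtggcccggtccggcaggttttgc
Gja1: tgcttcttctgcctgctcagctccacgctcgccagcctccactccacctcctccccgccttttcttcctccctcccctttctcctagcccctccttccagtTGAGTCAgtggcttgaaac

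Over these stretches the Cldn1 promoter held 2 GC boxes and 11 CpG dinucleotides and the Cldn16 promoter 0 and 3. Tjp1 held 2 GC boxes and 14 CpG, and Gja1 held 0 GC boxes, 3 CpG and 1 AP-1 motif. RefSeq promoter windows of 300 bases (250 before the start and 50 after it) matched 33 of the 43 members. Not matched were Cldn8, Cldn9, Cldn13, Cldn23, Gjc1, Gjd4, Gje1, Jam2, Jam3 and Marveld3. A GC box was found in 11 of 15 windows of called members (73.3%) and 15 of 33 windows of members not called (45.5%). On the array as a whole it was found in 64.9% of windows of called genes and 37.1% of windows of genes not called, and in 35.7% of all 32851 windows of the table, so the order of the junction genes was the order of all genes. The TATA box (TATAAA, either strand) was found in 0 of 15 windows of called members and 7 of 33 of the others, beside 7.07% and 13% for all called genes and all genes not called. The Grhl motif (AACCNGTT, either strand) is bound by grainyhead-like factors of epithelia. It was found in 2 of 15 windows of called members (Cldn5 and Gjb6) and 1 of 33 of the others (Cgn). For all called genes and all genes not called the shares were 1.77% and 2.12%, and for all windows 2.09%. The AP-1 motif was found in 2 of 15 windows of called members (F11r and Gja1) and 2 of 33 of the others (Cldn4 and Cldn15). The corresponding shares were 4.91%, 8.16% and 7.81%. A match to these letters is a description and does not show that a factor binds there.

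Claudins were the family with the lowest share of called members. Their share was close to that of connexins with a background of testis and retina genes (20% and 21.4%) and at the 75th percentile (35% and 35.7%). The families were not compared at equal numbers of probe sets. Cldn1, Cldn10, Cldn12 and Cldn5 were above background, and 16 of 20 were not. Cldn1 encodes a sealing claudin of skin and other stratified epithelia, which is also found in ameloblasts and in the stratum intermedium next to them. Its probe set 1437932_a_at had signals of 24867, 23542, 22865 and 23251 on arrays 1 to 4 (23631 ± 869, SD, n = 4). The lowest of these was 17.7 times the threshold of its array, and the arrays lay close together, with an SD of 0.05 on the log2 scale. The limma adjusted p for Cldn1 was 1.19e-14.

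Cldn10 encodes a claudin that forms ion-selective pores, and mutations of its human gene cause an ion-transport disorder that includes enamel wear. It had signals of 10815, 9691, 9339 and 11375 (10305 ± 951), at least 7.21 times the threshold on every array (limma adjusted p = 5.57e-13). RefSeq gives Cldn10 2 start windows, of which 1 has a GC box and 27 CpG and the other has no GC box and 4 CpG. Its single probe set bears the suffix for shared sequence and does not separate transcripts from these starts.

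Cldn12, an unusual claudin that lacks the C-terminal binding motif for PDZ scaffolds, had signals of 3607, 3986, 4493 and 3238 (3831 ± 537; limma adjusted p = 6.40e-09). A second Cldn12 probe set passed on all 4 arrays too, at 3061, 2208, 2714 and 2238. Both probe sets thus stood over the threshold on each array, the brighter by 2.56 times or more.

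Cldn5, the main claudin of endothelial cells and of the blood-brain barrier, had signals of 3581, 2981, 3295 and 4210 (3517 ± 523; limma adjusted p = 1.99e-08), with array 4 the highest. All 8 endothelial markers were above background in the same pool, including Egfl7 at 7975 ± 377 and Eng at 6218 ± 234. The count was 7 with the 99th percentile as threshold and 6 with a background of testis and retina genes. The summed signal of the 8 markers ranged from 31757 to 32724 over the arrays. The part of vessels in the Cldn5 signal was not tested.

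**Figure D1:**
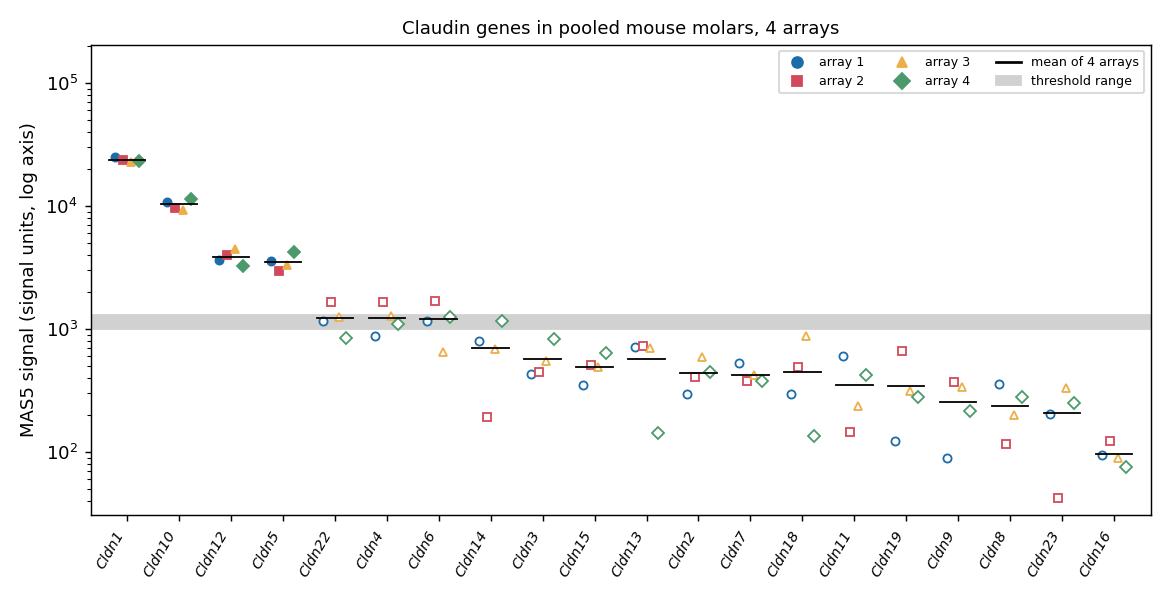
MAS5 signal (log axis, signal units) of the 20 measured claudin genes on arrays 1 to 4, with filled symbols for genes above background, a black line for the mean and a grey band for the thresholds of the arrays (996 to 1295). Cldn1, Cldn10, Cldn12 and Cldn5 lie above the band on all 4 arrays, while Cldn22, Cldn4 and Cldn6 straddle it.

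Cldn4, Cldn6 and Cldn22 lay at the threshold. Cldn4, a claudin of simple and glandular epithelia, had signals of 879, 1649, 1274 and 1102 and exceeded the threshold on array 2 alone. Cldn6, known from embryonic epithelia and epidermis, had 1168, 1698, 654 and 1260 and exceeded it on 2 arrays. Cldn22 had 1161, 1668, 1249 and 851 and also exceeded it on 2. For all 3 genes the highest signal was on array 2 and the spread between arrays (SD of 0.38 to 0.58 on the log2 scale) was larger than the distance of the mean from the threshold, which was 0.05 for Cldn4 and Cldn22 and -0.03 for Cldn6 (log2). With the 75th percentile of the receptor probe sets as threshold, at which 65.3% of all genes passed, these 3 were called and the claudin count was 7 of 20. Where Cldn4 stood at the threshold, its neighbour Cldn3 did not reach it on any array, with 430, 448, 552 and 831 in the brightest of its 4 probe sets.

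The other 13 claudins exceeded the threshold on 0 arrays in every one of their probe sets. They include Cldn16 and Cldn19, whose human genes are linked to enamel defects as is that of Cldn10, which was called. Cldn16, which forms a paracellular path for magnesium and calcium in the kidney, had 94.4, 123, 89.1 and 74.9, and Cldn19, its partner there, had 122, 667, 311 and 281. The Cldn16 signal averaged 0.0811 of the threshold (geometric mean over arrays). Kidney tubule markers were also below background, 0 of 5, with a limma count of 0 after adjustment and 0 at an unadjusted p under 0.05. Each of Cldn16 and Cldn19 is read by 1 probe set, and low signal there leaves a small amount of transcript possible.

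Cldn2, a cation-pore claudin of leaky epithelia, had 298, 408, 595 and 446, and Cldn18, a claudin of stomach and lung, had 296, 493, 870 and 136. Among 4 lung and stomach markers 1 was above background, Sftpb at 1692 ± 307. Cldn7, common in epithelia that also make Epcam, had 528, 375, 425 and 374, while Epcam itself was above background, at 10967 ± 6139. Cldn14 and Cldn11, both needed for hearing, had 796, 191, 682 and 1151, and 602, 146, 236 and 422. Cldn11 is also a claudin of central nervous system myelin and of testis. The remaining claudins not called were Cldn3, Cldn8, Cldn9, Cldn13, Cldn15 and Cldn23. Over the 16 claudins not called, mean signals ranged from 95.3 to 1232, with a median SD between arrays of 0.64 on the log2 scale, beside 0.16 for the called junction genes of every family.

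Among connexins, Gja1, Gjc1, Gjb2, Gja4 and Gjb6 were above background and 9 of 14 were not. Gja1 encodes Cx43, the connexin of odontoblasts, osteoblasts, fibroblasts and many epithelia. Its brightest probe set, 1437992_x_at, had signals of 97617, 115169, 102887 and 99057 (103682 ± 7974), at least 78.2 times the threshold on each array (limma adjusted p = 1.72e-15). All 6 of its probe sets passed on all 4 arrays, the most of any member. The 2 osteoblast markers measured, Ibsp at 24189 ± 1339 and Sp7 at 9376 ± 626, were above background as well, and which of the cell types in the pool carried the Gja1 transcript was not tested.

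The 6 Gja1 probe sets did not behave alike on array 4. The brightest and 1415800_at, at 102995, 109996, 98375 and 89711, varied by SDs of 0.11 and 0.12 on the log2 scale. Probe set 1438650_x_at had 64116, 64077, 68100 and 31070, and 1438945_x_at had 72090, 70786, 73376 and 52364, with array 4 the lowest in both. Probe set 1415801_at ran the other way, at 55266, 51290, 55185 and 65305, with array 4 the highest. The dimmest, 1438973_x_at, had a mean of 7336 ± 1129 and lay 3.83 below the brightest on the log2 scale, a difference between probes for 1 gene in the same RNA. Array 4 also had the lowest mean correlation with the other arrays over all called probe sets, 0.969 against 0.974 to 0.975.

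**Figure D2:**
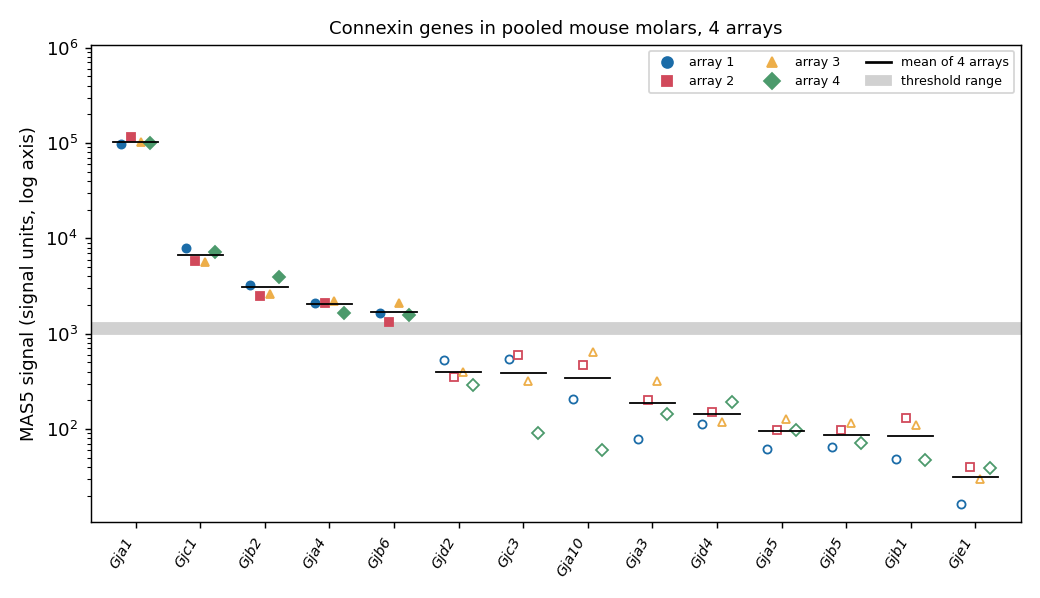
MAS5 signal (log axis, signal units) of the 14 measured connexin genes on arrays 1 to 4, with filled symbols for genes above background, a black line for the mean and a grey band for the thresholds of the arrays. Gja1 lies near 103682, Gjc1, Gjb2, Gja4 and Gjb6 lie over the band on all 4 arrays, and the other 9 genes lie below it on every array.

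Gjc1 encodes Cx45, a connexin of the developing vessel wall, heart and bone. It had signals of 7861, 5798, 5714 and 7128 (6625 ± 1048; limma adjusted p = 5.87e-11), and its second probe set, at 2104, 1879, 1384 and 1259, missed the threshold on array 4. Mural and smooth muscle markers were above background for 5 of 6 genes, with Acta2 at 29157 ± 1468. Myh11, at 653 ± 347, exceeded the threshold on 0 arrays. The mural count was 3 of 6 without shared-sequence probe sets and 4 by the median probe set. Skeletal muscle markers were above background for 5 of 5 (4 by limma after adjustment), with Acta1 at 20889 ± 1385. The Acta2 and Acta1 values come from probe sets that bear a shared-sequence suffix. The part of mural and muscle cells in the Gjc1 signal was not tested.

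Gjb2 and Gjb6 encode Cx26 and Cx30, beta connexins of stratified epithelia and the inner ear whose genes are neighbours. Gjb2 had signals of 3206, 2500, 2601 and 3952 (3065 ± 669; limma adjusted p = 4.31e-07), at least 2.01 times the threshold on each array. Gjb6 had 1667, 1339, 2112 and 1566 (1671 ± 325; limma adjusted p = 0.0158), and its lowest ratio to the threshold was 1.22. The Gjb6 call did not hold with the 99th percentile as threshold, which 48.2% of all genes passed, or with a background of testis and retina genes. Both genes are read by 1 probe set each. Of 8 epithelial markers 8 were above background, among them Krt5 at 117973 ± 13649 and Cdh1 at 28269 ± 3493, as were 6 of 8 genes of oral and cornified epithelium, among them Krt4 at 52269 ± 6646 and Krt6a at 28453 ± 3061. Dental and oral epithelium in the pool cannot be told apart by these values.

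Gja3, which lies next to Gjb2 on the chromosome and encodes a connexin of the lens, was not called, with 79.1, 201, 318 and 144. No lens marker was called either (0 of 6, by limma 0 after adjustment and 0 at an unadjusted p under 0.05). Gja3 and Gjb2 thus lay on opposite sides of the threshold on all 4 arrays, as did Cldn1 and Cldn16. The neighbours Ocln and Marveld2 also had 1 gene called and the other not. Other neighbouring pairs had the same call. Gjb2 and Gjb6 were both called. Neither gene was called in the pairs Cldn6 and Cldn9, Cldn4 and Cldn3, or Cldn13 and Cldn4, the last with 1 protein-coding gene between them.

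Gja4 encodes Cx37, a connexin of arterial endothelium. It had signals of 2118, 2110, 2221 and 1660 (2027 ± 250; limma adjusted p = 0.000403), with array 4 the lowest at 1.31 times its threshold. Its call did not hold with a background of testis and retina genes, under which 41.4% of all genes were called. Gja5, which encodes Cx40, the other arterial connexin, had 62.4, 97.8, 126 and 97.4 and was far below the threshold on every array. Of the arterial connexins 1 was thus called and the other was not, each by 1 probe set. All 8 endothelial markers passed in the same pool, and 6 of the 8 with a background of testis and retina genes.

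Gjb1 and Gjc3 were not called. Gjb1 encodes Cx32, of Schwann cells and hepatocytes, and had 48.4, 131, 110 and 47.9 in the brighter of its 2 probe sets. Gjc3, a connexin of glia, had 541, 603, 321 and 90.8 in the brighter of 2. Cldn11, a claudin of central nervous system myelin, was low as given above. Schwann cell and myelin markers were above background for 3 of 5 genes, Pmp22 at 29524 ± 1595, Mbp at 4957 ± 881 and Sox10 at 1968 ± 530. Mag (1229 ± 556) and S100b (1064 ± 185) passed on 1 array each and were not called. This count was 2 at the 99th percentile, with testis and retina genes or by the median probe set, and 5 at the 75th percentile. Without shared-sequence probe sets, which include those of Mbp and Sox10, it was 1 of 3. No liver marker was called (0 of 4, by limma 0 after adjustment and 0 at an unadjusted p under 0.05), and 1 of 5 brain markers was, Rbfox3 at 2005 ± 149. That brain count was 2 without array 2 or without array 4, 3 where 3 arrays sufficed or at the 75th percentile, and 0 with testis and retina genes or by the median probe set. The neuronal connexin gene Gjd2 had 536, 355, 398 and 290. The other connexins not called were Gja10, Gjb5, Gjd4 and Gje1, and over all 9 the mean signal ranged from 31.3 to 395.

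Among adhesion molecules and scaffolds, Tjp1, F11r, Jam2, Jam3 and Ocln were above background. Tjp1 encodes ZO-1, the scaffold that binds claudins, occludin and Cx43. It had signals of 20990, 20630, 21720 and 20544 (20971 ± 536; limma adjusted p = 1.06e-14), an SD of 0.04 on the log2 scale. Its only probe set bears a shared-sequence suffix, so it was not measured where such probe sets were left out. Tjp3, which encodes ZO-3, a scaffold of simple epithelia, had 666, 793, 767 and 744 and exceeded the threshold on 0 arrays. Their SD of 0.11 on the log2 scale was below the median of 0.16 for called genes, and with the 75th percentile as threshold it was called. Cgn, for cingulin, which links tight junctions to actomyosin, had 385, 1129, 825 and 344 and exceeded the threshold on array 2 alone.

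F11r encodes JAM-A, an adhesion molecule of epithelial, endothelial and blood cells. It had signals of 14583, 13462, 12906 and 11731 (13170 ± 1186; limma adjusted p = 2.76e-13), all at least 9.26 times the threshold. Macrophage and leukocyte markers were above background for 5 of 5 genes (4 by limma after adjustment, and 3 with a background of testis and retina genes), including Csf1r at 20413 ± 2425, and their part in the F11r signal was not tested. Its second probe set lay at the threshold, at 1163, 1118, 1061 and 1167, and passed on 2 arrays.

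Jam2, for JAM-B of endothelial and mesenchymal cells, had signals of 4200, 4298, 4369 and 4312 (4295 ± 70.1; limma adjusted p = 6.59e-10), the smallest spread of the 43 members at 0.02 on the log2 scale. Of its 5 probe sets 3 passed on all arrays. Jam3, for JAM-C, its binding partner, had 3657, 3555, 3979 and 3842 (3758 ± 189; limma adjusted p = 3.24e-09), while its second probe set had 520, 605, 252 and 225. The Jam3 signals varied little between arrays within the brighter probe set, with an SD of 0.07 on the log2 scale.

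**Figure D3:**
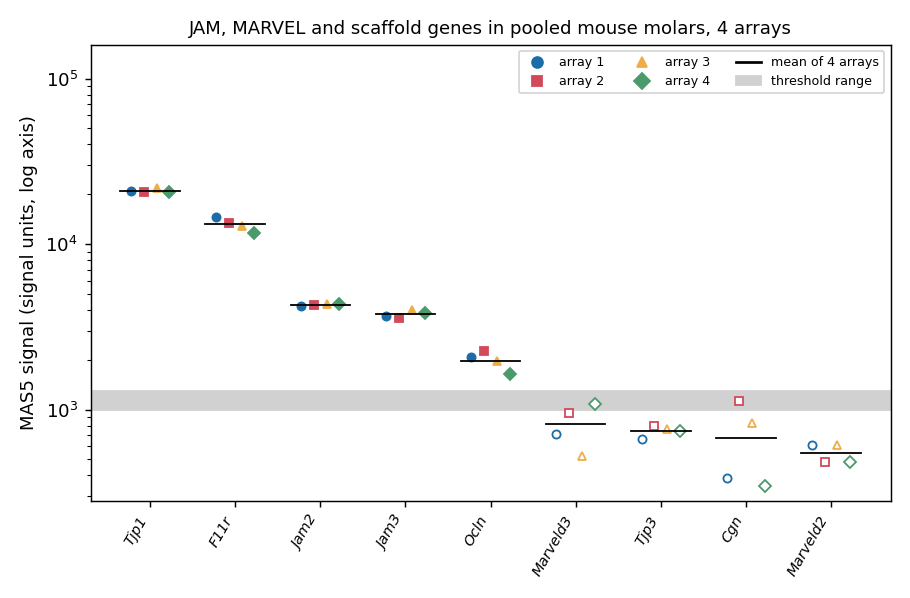
MAS5 signal (log axis, signal units) of the 9 measured JAM, MARVEL and scaffold genes on arrays 1 to 4, with filled symbols for genes above background, a black line for the mean and a grey band for the thresholds of the arrays. Tjp1, F11r, Jam2, Jam3 and Ocln lie above the band on all 4 arrays, and Marveld3, Tjp3, Cgn and Marveld2 have means below it.

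Ocln, for occludin, had signals of 2069, 2245, 1954 and 1634 (1975 ± 257; limma adjusted p = 0.000806), with array 4 the lowest at 1.29 times its threshold. Its second probe set, at 1199, 1522, 838 and 1109, passed on 2 arrays, and the Ocln call did not hold by the median of both or with a background of testis and retina genes. Marveld2, for tricellulin, the protein of 3-cell corners, had 611, 480, 608 and 481 and stayed below the threshold on all 4 arrays. Marveld3, the third junctional MARVEL protein, had 712, 956, 521 and 1073 in the brightest of 3 probe sets and was called only with the 75th percentile as threshold. Of the 3 MARVEL genes among the members, Ocln alone was called, by the smallest margin of the 5 genes called in its group. Marveld1, which is outside the member rule, was above background at 29805 ± 4526.

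Probe sets of 1 gene often disagreed. Of the 8 called members with several probe sets, Gja1 and Cldn12 had all of them above background and the other 6 had at least 1 that was not. The widest gap was in Cldn1, whose second probe set passed on all arrays at 11036, 11119, 9782 and 10874, while the 2 dimmer ones had means of 255 ± 165 and 59.4 ± 68.2. By the median of its 4 probe sets on each array Cldn1 was not called. Jam3 and Ocln were lost by the same rule, which called 39.3% of all genes.

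**Figure D4:**
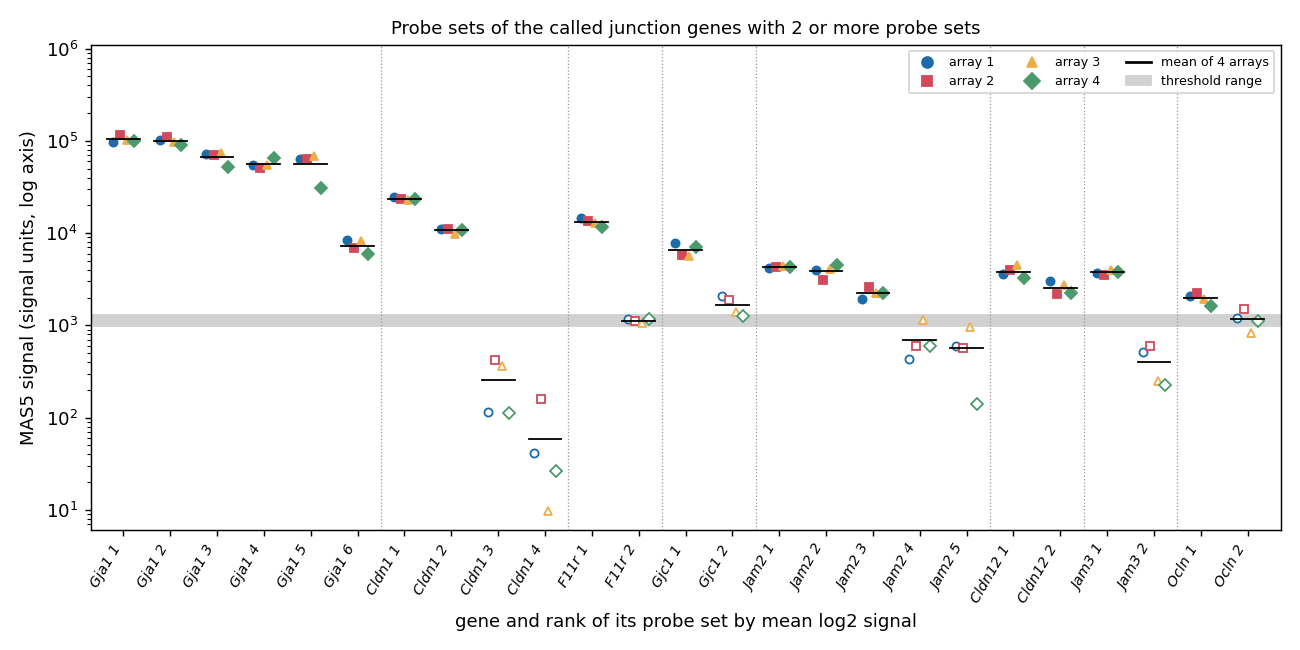
MAS5 signal (log axis, signal units) on arrays 1 to 4 of every probe set of the 8 called junction genes with 2 or more, ranked within each gene by mean log2 signal, with filled symbols for probe sets above background on all 4 arrays and a grey band for the thresholds. All 6 Gja1 and both Cldn12 probe sets are filled, and Cldn1 spans the widest range, from 23631 to 59.4.

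Many genes of proteins that work with these members were above background. Of 47 measured junction partner genes 36 (76.6%) were above background, and their median log2 signal was 12.21, beside 51.6% and 10.69 for all genes. The list includes polarity proteins, further scaffolds and adhesion molecules, pannexins and epithelial transcription factors. It also includes Src, Vcl, Cav1, Wnk1 and Nedd4l, which were called. By the median probe set the partner count was 25 of 47 (53.2%), beside 39.3% of all genes. Many partner genes have several probe sets. On the array as a whole 68.4% of genes with 2 or more were called, against 35.2% of genes with 1. The partner share was not split by number of probe sets, and the list was not tested against the junction genes. Highest by signal were Ybx3, for the ZO-1-binding transcription factor ZONAB, at 52651 ± 2669, Marveld1 at 29805 ± 4526 and Amotl1, for an angiomotin-like scaffold, at 29070 ± 1650. The polarity genes Pard3, Prkci and Patj were above background, at 5722 ± 193, 25724 ± 699 and 4989 ± 320. So were Pard6g (27312 ± 4175), Crb3 (3580 ± 494), Pard3b (4098 ± 253), Prkcz (1988 ± 174) and Mpp5 (2101 ± 268). Pard6a (1216 ± 217, 2 arrays), Crb1 (1128 ± 216, 2 arrays) and Pard6b (139 ± 108, 0 arrays) were not. Also above background was Cgnl1, for the paracingulin related to cingulin, at 3919 ± 393. Of the angulins, which hold tricellulin at cell corners, Lsr (4623 ± 671) and Ildr2 (24441 ± 2521) were above background and Ildr1 (138 ± 79.9) was not, while Marveld2 itself was not called. The values of Ybx3, Marveld1, Prkci, Crb3, Ildr2 and Pard6b come from probe sets that bear a shared-sequence suffix.

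Pannexins form channels related in shape to those of connexins. Panx3, known from osteoblasts, odontoblasts and cartilage, had signals of 6159, 5289, 6284 and 4655 (5597 ± 768) and Panx1 had 4017, 3429, 3530 and 3335 (3578 ± 304), all over the threshold. The Panx3 value comes from a probe set with a shared-sequence suffix. Panx2, a pannexin of neural tissue, had 143, 90.2, 553 and 320 and was not called. Of the grainyhead-like factors, which control claudin and cadherin genes in epithelia, Grhl2 was above background at 3711 ± 225, Grhl1 passed on 1 array and Grhl3 on 0. The other epithelial transcription factors of the list were not called: Ovol1 (557 ± 148, 0 arrays), Ovol2 (1073 ± 353, 2 arrays) and Gata3 (59.5 ± 25.8, 0 arrays).

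**Figure D5:**
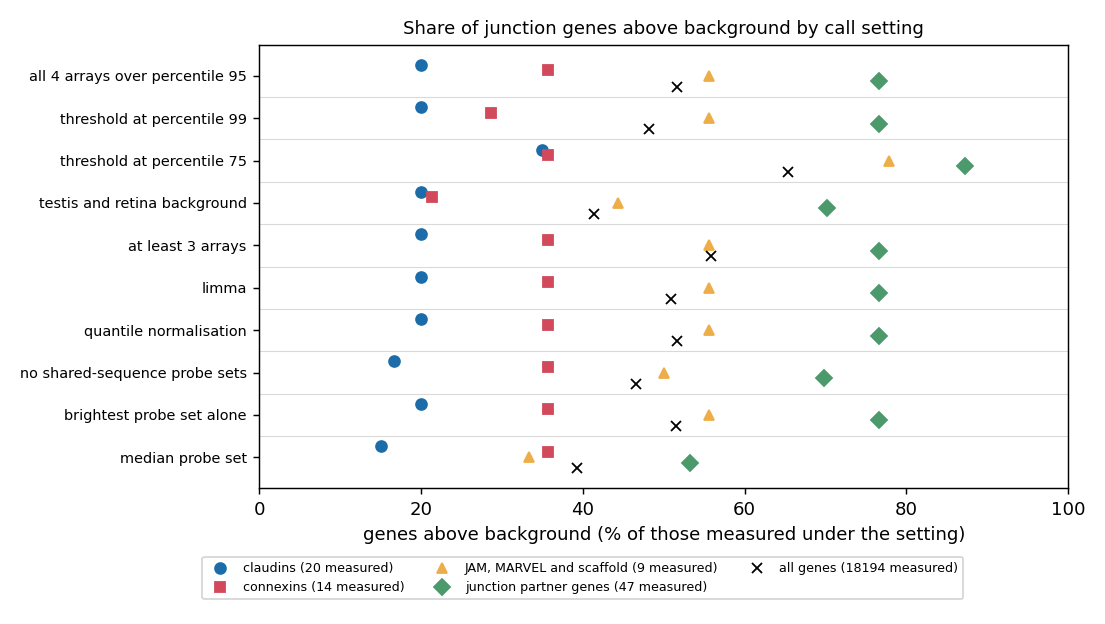
Share of genes above background (% of those measured under each setting) for the claudins, connexins, JAM, MARVEL and scaffold genes, junction partner genes and all genes, under the all-array rule and 9 other settings. Claudins and connexins lie left of the cross for all genes in every row.

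The share of claudins and the share of connexins lay below the share of all genes under each of the 10 settings plotted. The claudin share ran from 15% by the median probe set to 35% at the 75th percentile, where the shares of all genes were 39.3% and 65.3%. The connexin share ran from 21.4% with a background of testis and retina genes, where 41.4% of all genes were called, to 35.7%. By the median probe set it was 35.7% (5 of 14), close to the 39.3% of all genes. The settings reuse the same arrays, so their shared direction is not repeated evidence. Leaving out any 1 array left the count at 14 of 43, and the 14 genes were kept each time.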

How the data were processed

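The authors deposited a linear signal intensity for each of 45101 probe sets on every array. Per the submitters' processing notes, the authors computed these intensity values with MAS5, which subtracts a mismatch estimate and so makes low signals noisy. For MAS5, the version, the settings and the detection calls are not stated in the labels. After trimming 2% of probe sets at each end, the mean was 2500 on all arrays, so the arrays share a scale. Arrays have no read depth, and the number of arrays (4 of 1 RNA pool) limits the precision; p-values measure only the technical spread. Replicate numbers come from the sample titles, since the description of each sample reads replicate 1. The labels do not say whether the pool was labelled once or for each array, so the SDs cover hybridisation and scanning and possibly labelling.

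Gene names come from the annotation of the platform: 34958 probe sets named 1 gene, and those naming several (932) or none were not used. All 43 gene IDs matched the RefSeq table (GRCm38.p6) and no symbol changed. Some genes that fit the rule are not reported here. The table names no genome build, and coordinates are those of RefSeq promoters. Each gene takes the value of the probe set with its highest mean on the log2 scale. The limma test (limma 3.58.1, R 4.3.3) was one-sided over all probe sets.

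The members, lists and settings were chosen with earlier results of these data known. Named with their 4 values were members above background, members whose call differs under another setting, and members of known enamel or cell type interest that were not called; for partner genes and markers, the highest by signal and those beside a result. Cldn3, Cldn7, Cldn14, Cgn, Gjd2 and Marveld2 among the members, and the polarity, angulin, pannexin and grainyhead genes, were named beyond this rule after their values were seen. So were Ovol1, Ovol2, Gata3, Src, Vcl, Cav1, Wnk1 and Nedd4l among the partner genes, and the markers Myh11, Mag and S100b. Alternatives were the 99th and 75th percentile, a background of 58 testis and retina probe sets, 3 of 4 arrays, limma, quantile normalisation, no shared-sequence suffixes (_s_at, _x_at, _a_at), the brightest or the median probe set, and leaving out each array.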

Additional observations from a re-analysis of the deposited data

Results flagged for a closer look

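A gap test for 4 values (the distance of the highest or lowest array to its nearest neighbour over the whole range, above Dixon's critical value) was applied to 79 sets, of which 73 are member probe sets on the log2 scale. It picked out 4 of the 73 probe sets, where chance gives about 1 in 20 (3.65 of 73), and 1 of the other 6 sets. In 3 of these 4 probe sets the outlying value was that of array 4. Gja1 was lower on array 4 in 1438650_x_at (14.92, others 15.97 to 16.06) and in 1438945_x_at (15.68, others 16.11 to 16.16), both far above the threshold. Cldn13 was lower on array 4 (7.15, others 9.45 to 9.51), and a Gja3 probe set was lower on array 3 (3.87, others 8.45 to 8.57). Neither reached the threshold on any array. The number of JAM, MARVEL and scaffold genes over the threshold of the single array was 6 on array 2 and 5 on each other array, a count with ties to which the chance rate does not apply. The gene apart on array 2 was Cgn.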

How the results depend on the processing

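The count of 14 junction genes was 13 at the 99th percentile (Gjb6 lost; 48.2% of all genes called), 19 at the 75th (Cldn4, Cldn6, Cldn22, Marveld3 and Tjp3 gained; 65.3% of all genes), 11 with testis and retina genes as background (Gja4, Gjb6 and Ocln lost; 41.4% of all genes) and 11 by the median probe set (Cldn1, Jam3 and Ocln lost; 39.3% of all genes). It was 12 of 40 without shared-sequence probe sets, where Cldn10, Cldn3 and Tjp1 were not measured and 46.6% of 16593 genes were called, and 14 under the other settings. Family counts moved by over 1.5 times in 3 cases: claudins to 7 at the 75th percentile, connexins to 3 with testis and retina genes, and the JAM, MARVEL and scaffold genes to 3 by the median probe set. With testis and retina genes the mean log2 ratio to the threshold became -0.27 for Gjb6 and -0.02 for Ocln. The cause was not tested. Leaving out 1 array gave 14 each time. Signal near background limits Cldn4, Cldn6 and Cldn22, whose 4 arrays fell on both sides of the threshold. No paired analysis was possible because all arrays are of 1 group.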
